A study of Mus musculus with 15 samples.

Results

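The comparison described here sets telomerase-deficient bone marrow cells that kept Puma against wild-type (WT) cells. It uses 7 of the 15 RNA sequencing libraries of the study, chosen by their titles: 4 of the genotype G3 mTerc-/-Puma+/+ and 3 of WT. All expressed autosomal genes were examined, which were 18219 of the 18983 genes kept for testing and of the 45706 genes listed. Genes of chromosomes X and Y were left out because the libraries differed in the sex of their cells.

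G3 mTerc-/-Puma+/+ mice lack the telomerase RNA gene and belong to the third generation bred without it, with both copies of Puma intact. WT mice carry both genes. In each genotype, stem and progenitor (LSK) cells of donor mice were passed through irradiated recipients in series, and lineage marker-negative cells were taken with magnetic beads from the femurs of the secondary recipients, so that irradiation and serial transplantation were common to both groups. The remaining libraries are labelled Puma-/- (4) and G3 mTerc-/-Puma-/- (4, of which 3 entered the fit), and provide a contrast of mTerc that shares no library with the present one. The bead depletion as described does not select donor cells, so surviving cells of the recipients can be present. The labels do not state which recipient or experiment a library came from, so the p-values measure the spread between these libraries, which may be technical.

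Telomerase adds telomeric repeats to chromosome ends by copying a short template within its RNA subunit, Terc. Without it, telomeres shorten with each round of division and each generation, and very short telomeres are read as DNA damage, which activates the transcription factor p53. Among the genes that p53 induces are the cell cycle inhibitor Cdkn1a, the feedback inhibitor Mdm2 and the death genes Bbc3 (Puma) and Bax. Blood-forming tissue divides constantly, and the study names bone marrow failure as the main cause of early death in human telomere biology disorders.

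Terc is an RNA gene on the minus strand of chromosome 3 (GRCm38, chr3:96414437-96414859). The first 60 bases of its annotated transcript are shown because they hold the template for telomeric repeats. The annotated start was not checked against that of the mature RNA. The bases are written as DNA from 5′ to 3′, with the longest stretch complementary to the telomeric repeat in capitals:
Terc: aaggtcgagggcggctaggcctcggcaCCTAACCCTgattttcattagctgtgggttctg

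The targeted gene was examined first. Terc carries no poly(A) tail in its mature form and was too sparse in these poly(A)-selected libraries to be tested. It received 7, 17 and 10 counts in WT replicates 1 to 3, and 0, 1, 1 and 1 counts in G3 mTerc-/-Puma+/+ replicates 1 to 4. The groups did not overlap, and the rate was 16.4 times higher in WT (95% interval 5.15 to 83.3, which covers counting error only). Puma, which is intact in both groups, was measured as Bbc3 at 20.6, 9.67 and 23.4 normalized CPM (counts scaled to a common library size) in WT and at 14.7, 20.7, 20.5 and 11.7 in G3 mTerc-/-Puma+/+. These ranges overlapped, and the log2 difference was -0.08 (SE 0.27, adjusted p = 0.998). Each adjusted p here and below is from the quasi-likelihood test of edgeR, adjusted by the Benjamini-Hochberg method over all genes tested. In the libraries used for the other contrast, Bbc3 went against a label: it lay at 5.02 to 6.80 CPM in Puma-/- but at 17.0, 15.6 and 13.5 CPM in the libraries labelled G3 mTerc-/-Puma-/-, within the range of cells that have Puma. Every statement on the Puma-/- background below rests on that label.

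The 7 libraries held 102790519 to 134106521 counts. The stem and progenitor gene Kit lay at 127 to 142 CPM in WT and 120 to 154 in G3 mTerc-/-Puma+/+, and the myeloid progenitor gene Mpo at 7428 to 10068 and 8743 to 12213 CPM. Immunoglobulin genes of mature B cells summed to 15292 CPM or more in WT, so the lineage-negative fraction was not free of later cells. Xist, which is made by female cells, lay at 417, 211 and 1.72 CPM in WT and at 40.2, 0.176, 88.6 and 50.6 in G3 mTerc-/-Puma+/+, while the Y-linked Ddx3y lay at 21.2 to 43.0 and 42.6 to 48.0 CPM. Transcripts of both sexes were thus present in 2 WT and 3 G3 mTerc-/-Puma+/+ libraries, whereas Ddx3y was at most 0.0446 CPM in the Puma-/- libraries. In such bulk samples, fewer cells of a type and less RNA per cell cannot be told apart.

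Few genes separated the genotypes. Of the 18219 autosomal genes, 7 passed at an adjusted p under 0.05 (0.0384%), 3 higher (0.0165%) and 4 lower (0.022%) in G3 mTerc-/-Puma+/+. Of all autosomal genes, 54.6% had a log2 fold change above 0. At an unadjusted p under 0.05, 288 genes were higher (1.58%) and 412 lower (2.26%), and the median log2 fold change was 0.02. The libraries of the groups did not overlap for 749 genes, and 1.96% of all autosomal genes were higher and 2.15% lower in this way in G3 mTerc-/-Puma+/+. The 3 genes that rose were Gm15446, 1010001B22Rik and Rbm8a, and the 4 that fell were Wdfy1, Iglc2, Fcrla and Fcmr. The count depended on single libraries and on the tool: 1 gene (Gm15446) passed without WT replicate 1, 4 without G3 mTerc-/-Puma+/+ replicate 3, and 44 with DESeq2.

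The gene with the smallest p was Gm15446, a predicted protein-coding gene on chromosome 5 (chr5:109923400-109943936). It lay at 0.364, 0.343 and 0.441 CPM in WT and at 9.0, 8.75, 9.56 and 9.16 CPM in G3 mTerc-/-Puma+/+. The level was 23.8-fold higher in the latter (log2 fold change 4.57, SE 0.16, adjusted p = 3.44e-09). Its neighbour 1010001B22Rik, a long noncoding RNA that starts 51.6 kb further on (chr5:109995511-109996398), received 0, 1 and 0 counts in WT and 19, 14, 19 and 34 counts in G3 mTerc-/-Puma+/+ (adjusted p = 0.00826). The rate was 59.6 times higher in the telomerase-deficient cells, with a 95% counting interval of 10.4 to 2379. Zfp932, a zinc finger gene that begins 0.123 kb beyond it, was also without overlap (8.69 to 11.4 CPM against 11.7 to 17.4 CPM) but did not pass (log2 fold change 0.52, SE 0.15, adjusted p = 0.857).

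Gm15446 and 1010001B22Rik set WT apart from all other genotypes, while Zfp932 overlapped between WT and Puma-/- (11.2 to 15.1 CPM). In Puma-/- libraries, which have telomerase, Gm15446 lay at 6.57 to 8.42 CPM, and in those labelled G3 mTerc-/-Puma-/- at 7.62 to 9.54 CPM. On the Puma-/- background, the log2 fold change of Gm15446 with mTerc loss was therefore 0.13 (SE 0.13, adjusted p = 0.851), and the difference between the 2 mTerc contrasts was -4.44 (SE 0.20, adjusted p = 9.86e-08). Likewise, 1010001B22Rik lay at 0.201 to 0.308 CPM in Puma-/- cells, and its 2 contrasts differed by -5.92 (adjusted p = 0.0135).

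Wdfy1, which encodes an endosomal adaptor protein (chr1:79702262-79776143), showed the opposite pattern. It lay at 52.5, 33.6 and 50.1 CPM in WT and at 19.6, 21.1, 23.1 and 19.5 CPM in G3 mTerc-/-Puma+/+ (log2 fold change -1.12, SE 0.14, adjusted p = 0.00826). The 11 libraries of the other 3 genotypes all lay between 18.6 and 24.3 CPM. Without WT replicate 1, the adjusted p was 0.0575 for Wdfy1 and 0.0722 for 1010001B22Rik, and with the 7 compared libraries alone it was 0.183 and 0.221. The same arrangement was seen in Cdk5rap1, a gene of mitochondrial tRNA modification, with 28.8, 14.2 and 27.4 CPM in WT and 7.83 to 13.6 CPM in the 11 other libraries (log2 fold change -1.33, SE 0.23, adjusted p = 0.106). Cep85, which encodes a centrosomal protein, lay at 170 to 200 CPM in WT and 84.2 to 105 in G3 mTerc-/-Puma+/+ (adjusted p = 0.127), with 68.7 to 97.0 CPM in Puma-/- cells. Across all autosomal genes, the 11 other libraries lay above all WT libraries for 36 genes (0.198%) and below them for 26 (0.143%). Of the 27 genes named for their change in the present contrast, 9 had this arrangement, beside 8.28% of the 749 genes without overlap: Gm15446, 1010001B22Rik, Wdfy1, Cdk5rap1, Cep85, Inka2, Tnfrsf10b, Lrmda and Efcab7. Inka2 and Tnfrsf10b were also higher in mTerc-/- libraries on the Puma-/- background, which uses no WT library, with log2 fold changes of 2.27 (adjusted p = 0.00726) and 0.51 (adjusted p = 0.285). Of the 9 genes, only Inka2 passed there. For the others, including Tnfrsf10b, the genotype at mTerc and any other difference between the WT mice and the remaining mice cannot be told apart in the present contrast.

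**Figure D1:**
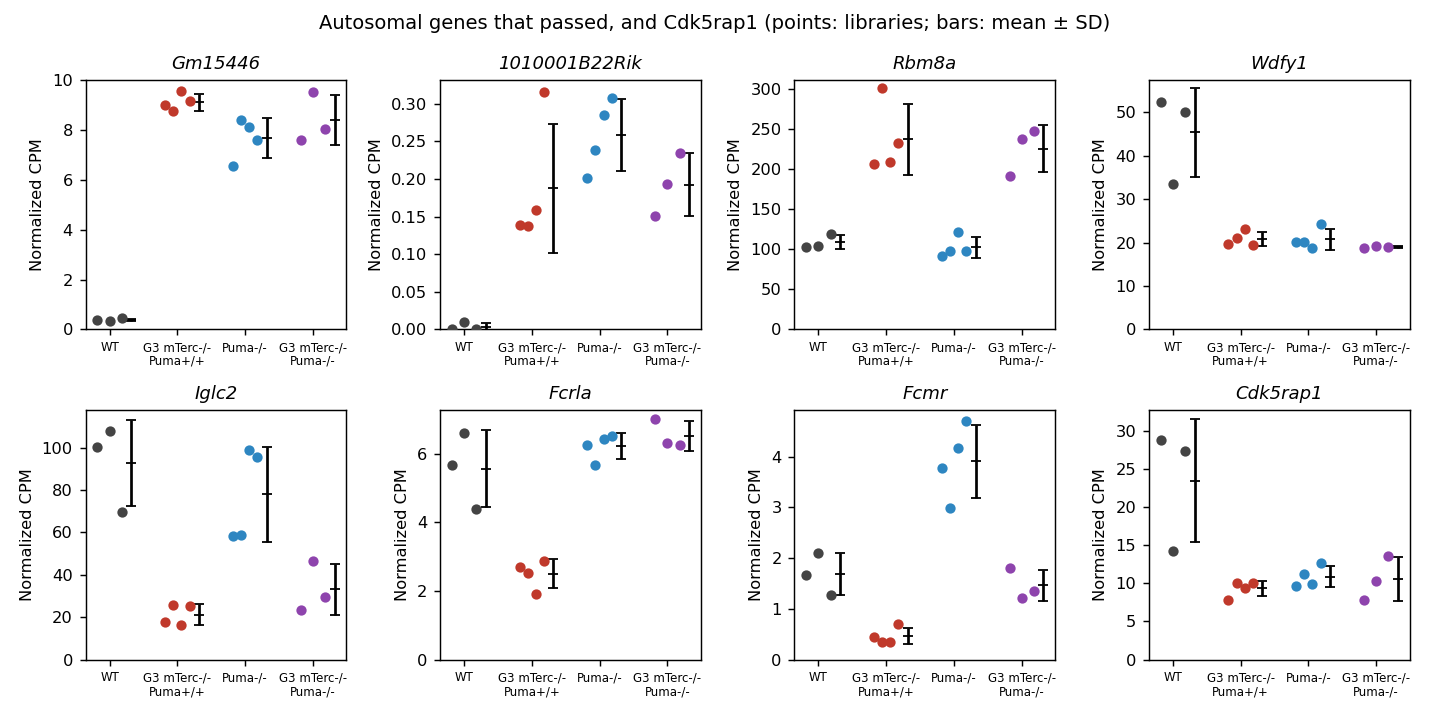
Normalized CPM (y axis) of the 7 autosomal genes that passed and of Cdk5rap1, by genotype (x axis). Each point is a library and each bar the mean ± SD. Gm15446, 1010001B22Rik, Wdfy1 and Cdk5rap1 set the 3 WT libraries apart from the 11 others, while Rbm8a and Iglc2 separate the mTerc-/- from the mTerc+/+ libraries.

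Rbm8a differed in the other way. It encodes Y14, a core protein of the exon junction complex that marks spliced mRNAs, and lies 215 kb from Terc (chr3:96629933-96633791). Its level was 103, 105 and 119 CPM in WT and 207, 301, 209 and 232 CPM in G3 mTerc-/-Puma+/+, or 1.12 higher on the log2 scale (SE 0.14, adjusted p = 0.00826). In the libraries labelled Puma-/- and G3 mTerc-/-Puma-/-, it lay at 91.4 to 121 CPM and at 192 to 247 CPM (log2 fold change 1.14, adjusted p = 0.00298), so that all 7 mTerc-/- libraries exceeded all 7 others. This full separation of mTerc-/- from mTerc+/+ libraries was found for 13 autosomal genes upward (0.0714%) and 15 downward (0.0823%), and for 3.74% of the 749 genes without overlap. Of the 27 genes named for their change, 6 had it: Rbm8a, Iglc2, Phlda3, Ccng1, Zmat3 and Hmcn2. Iglc2 lay at 16.2 to 46.5 CPM in mTerc-/- and 58.2 to 108 CPM in mTerc+/+ libraries. Without WT replicate 1 or 2, the adjusted p of Rbm8a in the present contrast was 0.0963 and 0.0614, and with the 7 compared libraries alone it was 0.119. Rbm8a has a near-identical copy on another chromosome, so its count is uncertain.

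The neighbourhood of Terc was examined because a targeted allele is inherited together with the chromosome segment around it. Of 362 tested genes within 10 Mb, 1 passed (Rbm8a) and 13 had an unadjusted p under 0.05 (3.59%, beside 3.84% of all autosomal genes). The median log2 fold change was 0.01. At an unadjusted p under 0.01 there were 4 further genes, Inka2, Creb3l4, Slc39a1 and Gm5547. The zinc transporter gene Slc39a1 lay at 50.4 to 56.3 CPM in WT and 58.6 to 67.8 CPM in G3 mTerc-/-Puma+/+ (log2 fold change 0.24, SE 0.07, adjusted p = 0.98).

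**Figure D2:**
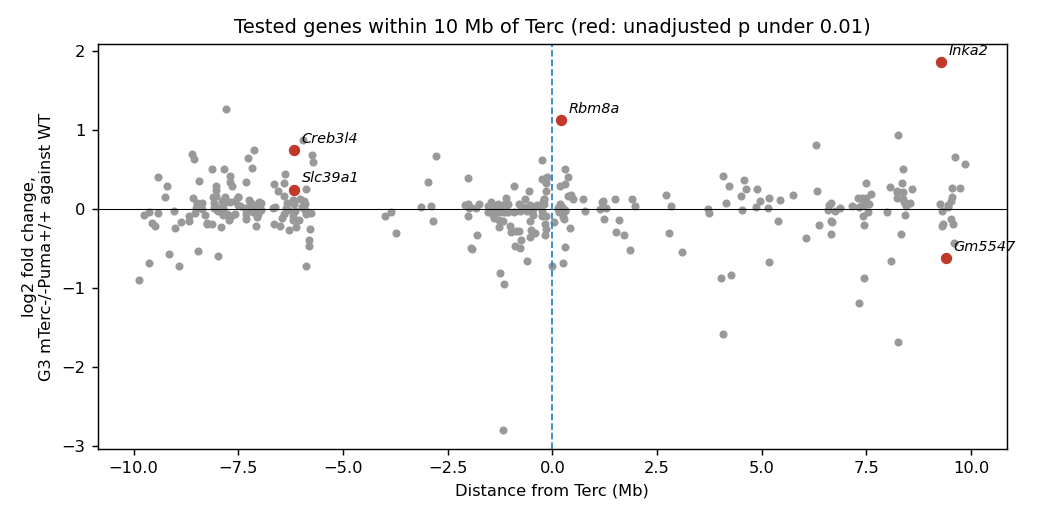
log2 fold change of G3 mTerc-/-Puma+/+ against WT (y axis) by distance from Terc in Mb (x axis) for the 362 tested genes within 10 Mb. Red points have an unadjusted p under 0.01, and Rbm8a, at 0.215 Mb, is the 1 gene that passed the adjusted test.

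Genes near chromosome ends were grouped by distance. In the 222 genes within 1 Mb of the last annotated gene of the distal chromosome end, the median log2 fold change was 0.03 and 4.50% had an unadjusted p under 0.05, beside medians of 0.02 for the 212 genes at 1 to 2 Mb and 0.01 for the 599 genes at 2 to 5 Mb. For the 886 genes at 5 to 10 Mb the median was -0.00 and 6.32% had an unadjusted p under 0.05. No gene within 10 Mb of the end passed, while 3 of 6228 genes at 10 to 50 Mb and 4 of 10072 genes farther away did.

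The p53 response was examined with a list of 30 p53 target genes. Of its members, 21 were higher and 9 lower in G3 mTerc-/-Puma+/+, and none passed the adjusted test. At an unadjusted p under 0.05, 10 were higher and 1 was lower, where 1.58% and 2.26% of all autosomal genes were. The 10 became 5 with all 15 libraries and 7 to 11 when a library was left out. The summed level of the list overlapped, at 815 to 1020 CPM in WT and 911 to 1083 CPM in G3 mTerc-/-Puma+/+. The libraries did not overlap for 10 members upward (background 1.96%) and for 0 downward (background 2.15%). The list's median log2 fold change was 0.10, beside 0.02 over all autosomal genes. It was 0.06 without G3 mTerc-/-Puma+/+ replicate 3 and 0.17 without G3 mTerc-/-Puma+/+ replicate 2, and without G3 mTerc-/-Puma+/+ replicate 2 or WT replicate 2, 4 members were lower at an unadjusted p under 0.05.

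Phlda3, which encodes a repressor of Akt signalling, had the smallest p of the list. It lay at 2.4, 2.80 and 1.49 CPM in WT and at 9.14, 4.82, 12.1 and 6.53 CPM in G3 mTerc-/-Puma+/+, without overlap (log2 fold change 1.87, SE 0.32, adjusted p = 0.106, exact two-sided permutation p = 0.0571, the smallest that 4 against 3 libraries can give). Ccng1, which encodes cyclin G1, lay at 64.9, 58.9 and 52.9 CPM in WT and 89.4, 81.4, 113 and 83.2 CPM in G3 mTerc-/-Puma+/+ (log2 fold change 0.64, SE 0.13, adjusted p = 0.276). Zmat3, an RNA-binding protein gene, lay at 4.65, 3.50 and 3.75 CPM against 8.88, 6.07, 12.6 and 6.32 CPM (log2 fold change 1.09, SE 0.26, adjusted p = 0.461). In each of these genes the 4 telomerase-deficient libraries lay above the 3 WT libraries, and replicate 3 was the highest of the 4.

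Trp53cor1, the noncoding RNA known as lincRNA-p21, was low, at 0.194 to 0.269 CPM in WT and 0.363 to 0.739 CPM in G3 mTerc-/-Puma+/+ (log2 fold change 1.29, SE 0.32, adjusted p = 0.588). The TRAIL receptor gene Tnfrsf10b lay at 2.27 to 2.62 CPM against 3.09 to 4.44 CPM (log2 fold change 0.55, SE 0.16, adjusted p = 0.857). The other members at an unadjusted p under 0.05 upward were Slc19a2, Aen, Psrc1, Bax and Pidd1, with log2 fold changes of 0.18 to 0.37. Of these, Bax, the pore-forming death effector, lay at 78.0, 82.7 and 78.1 CPM in WT and 96.9, 118, 105 and 82.8 CPM in G3 mTerc-/-Puma+/+ (log2 fold change 0.34, SE 0.13, adjusted p = 0.998). The groups of Bax did not overlap, but replicate 4 lay close to the highest WT library.

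Cdkn1a and Mdm2 were not among them. Cdkn1a, which encodes the cell cycle inhibitor p21, lay at 41.8, 22.02 and 56.3 CPM in WT and 57.0, 56.4, 77.5 and 37.5 CPM in G3 mTerc-/-Puma+/+. These ranges overlapped (log2 fold change 0.51, SE 0.27, adjusted p = 0.998, exact two-sided permutation p = 0.286). Mdm2, the feedback ubiquitin ligase of p53, lay at 60.7 to 72.0 CPM and 64.3 to 71.5 CPM (log2 fold change 0.00, SE 0.07). Trp53, the gene of p53 itself, lay at 205 to 222 CPM and 205 to 220 CPM (log2 fold change 0.01, SE 0.07). The member lower at an unadjusted p under 0.05 was Btg2 (log2 fold change -0.67, SE 0.29), which the list of immediate early genes holds as well.

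On the Puma-/- background, 26 of the 30 members were higher in the mTerc-/- libraries, as were 52.3% of all autosomal genes, and 6 passed, where 0.285% of all autosomal genes passed, 0.0714% upward and 0.214% downward. Bbc3 was among the 26 and among the 6, with a log2 fold change of 1.48. Its level there is what goes against the label, so it was not read as a response of p53 targets. The cause of this level was not tested. Bbc3 is also held in the counts for the difference below. Phlda3 had a log2 fold change of 2.09 (adjusted p = 0.00686), Zmat3 of 1.87 (adjusted p = 0.00594) and Ccng1 of 0.75 (adjusted p = 0.0253) there. Cdkn1a differed more between the backgrounds, with 1.90 (adjusted p = 0.00594) beside its 0.51 in the present contrast. The difference between the 2 contrasts passed for none of the 30 members (background 0.022%), and 8 had an unadjusted p under 0.05 for it, where 4.9% of all autosomal genes did.

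**Figure D3:**
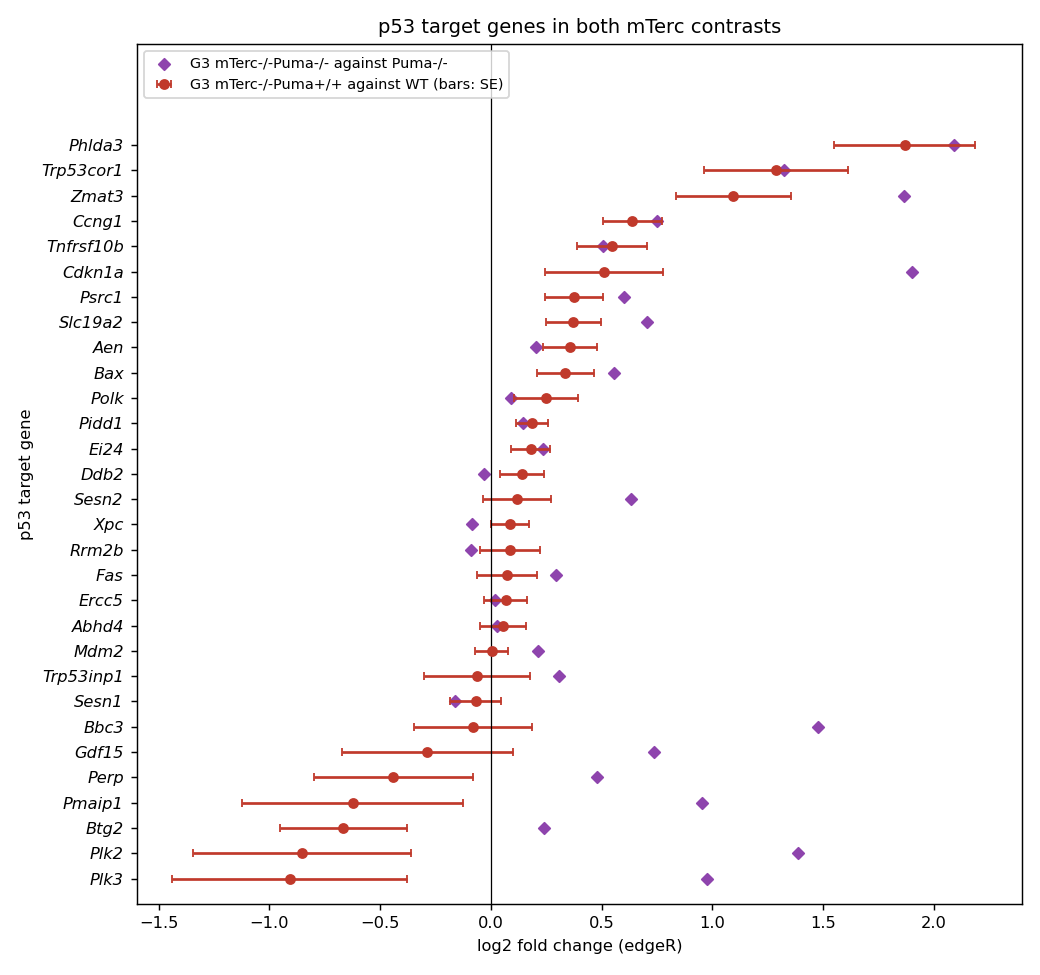
log2 fold change (x axis) of each of 30 p53 target genes (y axis) for G3 mTerc-/-Puma+/+ against WT (circles with SE) and for libraries labelled G3 mTerc-/-Puma-/- against Puma-/- (diamonds). Phlda3, Trp53cor1, Zmat3 and Ccng1 lie to the right in both contrasts, and Cdkn1a and Bbc3 lie further right on the Puma-/- background. The level of Bbc3 there goes against the Puma label.

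Among the genes named for their change that the list does not hold, Inka2 and Hmcn2 were ordered over the telomerase-deficient libraries as Phlda3 was. This order was looked for after the values were seen, and how many other named genes share it was not counted. Inka2 also lies within 10 Mb of Terc. Inka2, an inhibitor of the kinase Pak4, lay at 0.591 to 0.649 CPM in WT and at 2.32, 1.11, 3.79 and 1.79 CPM in G3 mTerc-/-Puma+/+ (log2 fold change 1.85, SE 0.35, adjusted p = 0.171). Hmcn2, a gene of an extracellular matrix protein, lay at 0.380 to 0.688 CPM and at 1.79, 0.921, 3.48 and 1.07 CPM (log2 fold change 1.72, SE 0.43, adjusted p = 0.55). In both, replicate 3 was highest and replicate 2 lowest among the telomerase-deficient libraries, and on the Puma-/- background both passed (adjusted p = 0.00726 for Inka2 and 0.00594 for Hmcn2).

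The promoters of the list were searched for the p53 consensus response element, a 20-base motif of paired half-sites, taken without a spacer and on the strand of the gene, which for this palindromic consensus covers both strands. RefSeq promoter windows (GRCm38.p6, 250 bases before to 50 after a gene's start) were matched for 21 of the 30 members. A match with at most 3 mismatches was present in 7 of them (33.3%), beside 781 of 11750 matched autosomal genes (6.65%). At most 1 mismatch was found in 2 members, Ccng1 and Cdkn1a, beside 11 of the 11750 genes (0.0936%). The list was made of genes already known as p53 targets, so their larger share of matches is no result of these expression data. The matches of the 3 members that were higher at an unadjusted p under 0.05, and that of Cdkn1a for comparison, are printed with 20 bases on either side and the motif match in capitals, 5′ to 3′ on the strand of the gene:
Ccng1: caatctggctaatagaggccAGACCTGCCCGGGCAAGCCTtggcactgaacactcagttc
Bax: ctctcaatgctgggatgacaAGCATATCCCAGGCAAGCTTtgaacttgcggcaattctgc
Aen: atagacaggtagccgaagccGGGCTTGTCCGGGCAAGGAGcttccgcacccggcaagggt
Cdkn1a: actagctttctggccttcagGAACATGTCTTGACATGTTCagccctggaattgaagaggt
The stretches lie at chr11:40755442-40755501 (minus strand) for Ccng1, chr7:45467070-45467129 (minus strand) for Bax, chr7:78895917-78895976 (plus strand) for Aen and chr17:29090908-29090967 (plus strand) for Cdkn1a. A match is a description of letters in this window and no evidence of binding, and Phlda3, whose change was larger than that of Ccng1, had no match at this limit.

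B lineage genes were lower in G3 mTerc-/-Puma+/+. Of 23 B lymphoid genes tested, 19 were lower and 4 higher in G3 mTerc-/-Puma+/+, 1 passed downward (Fcrla), and 10 had an unadjusted p under 0.05 downward and 0 upward (background 2.26% and 1.58%). The median log2 fold change was -0.54, and -0.34 without WT replicate 1. Of 8 plasma cell genes, 7 were lower, 5 at an unadjusted p under 0.05 (background 2.26%), with a median of -0.83. The 5 became 3 without WT replicate 2 or without G3 mTerc-/-Puma+/+ replicate 3, and the median became -1.30 without G3 mTerc-/-Puma+/+ replicate 2.

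Fcrla, which encodes an intracellular Fc receptor-like protein of B cells (chr1:170917576-170927583), lay at 5.68, 6.62 and 4.38 CPM in WT and 2.71, 2.54, 1.91 and 2.86 CPM in G3 mTerc-/-Puma+/+ (log2 fold change -1.15, SE 0.16, adjusted p = 0.0225). Fcmr, the gene of the IgM Fc receptor (chr1:130865669-130880791), lay at 1.66, 2.10 and 1.28 CPM and 0.454, 0.353, 0.350 and 0.698 CPM (log2 fold change -1.86, SE 0.27, adjusted p = 0.023). Iglc2, an immunoglobulin lambda constant gene (chr16:19198396-19200351), lay at 100, 108 and 69.7 CPM and 17.6, 25.6, 16.2 and 25.4 CPM (log2 fold change -2.13, SE 0.27, adjusted p = 0.00826). Each of the 3 genes was lower in all 4 telomerase-deficient libraries, without overlap, while the reads of Iglc2 are uncertain because the lambda constant genes are near-identical copies. These calls depended on the libraries in the fit. Fcrla and Fcmr passed in 2 of 7 leave-one-out fits, with adjusted p values of up to 0.123 and 0.135 otherwise, and Iglc2 in 5 (0.0613 without WT replicate 1 and 0.0525 without G3 mTerc-/-Puma+/+ replicate 3). With all 15 libraries the adjusted p was 1.0 for Iglc2 and 0.667 for Fcrla, and with the 7 compared libraries alone it was 0.459 for Fcrla and 0.304 for Fcmr.

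The mature B cell gene Ms4a1 (CD20) lay at 0.856 to 1.74 CPM in WT and 0.304 to 0.539 CPM in G3 mTerc-/-Puma+/+ (log2 fold change -1.56, SE 0.28, adjusted p = 0.128). Ighm, the IgM heavy chain constant gene, lay at 4719, 7707 and 1969 CPM in WT and 527, 1111, 808 and 1345 CPM in G3 mTerc-/-Puma+/+ (log2 fold change -2.34, SE 0.51, adjusted p = 0.335). Blnk, the adaptor of B cell receptor signalling, lay at 7.48 to 9.52 CPM and 2.76 to 5.42 CPM (log2 fold change -0.93, SE 0.23, adjusted p = 0.573). Genes of early B lineage cells were mixed. The surrogate light chain genes Igll1 and Vpreb1 had log2 fold changes of -0.54 and -0.51, with overlap. The terminal transferase gene Dntt lay at 18.9 to 46.2 CPM and 10.8 to 48.3 CPM (log2 fold change 0.03), the interleukin-7 receptor gene Il7r at 9.56 to 14.5 CPM and 5.32 to 14.3 CPM (-0.14), and the recombinase gene Rag1 at 0.194 to 0.593 CPM and 0.0784 to 1.20 CPM (0.42), each with overlap between the groups. These 5 genes were chosen after their values were seen.

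Plasma cell genes were lower with more spread. Igkc, the kappa constant gene, lay at 4668, 7562 and 4320 CPM in WT and 1061, 3120, 1082 and 2164 CPM in G3 mTerc-/-Puma+/+ (log2 fold change -1.57, SE 0.35, adjusted p = 0.374). Sdc1 (CD138) lay at 12.9 to 22.2 CPM and 7.38 to 12.4 CPM (log2 fold change -0.77, SE 0.22, adjusted p = 0.85). Xbp1, a factor of the secretory cell that other marrow cells also express, lay at 286 to 314 CPM and 248 to 358 CPM, with overlap.

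All 225 tested immunoglobulin genes of the annotation, a group formed after the values were seen, summed to 17163, 22369 and 15292 CPM in WT and to 4004, 14650, 4111 and 7447 CPM in G3 mTerc-/-Puma+/+. Of them, 182 were lower and 43 higher, 70 at an unadjusted p under 0.05 downward and 3 upward (background 2.26% and 1.58%), and the median log2 fold change was -1.26. G3 mTerc-/-Puma+/+ replicate 2 lay close to the lowest WT library in this sum. Without that library the median was -1.87. Reads of variable segments are uncertain, since these genes resemble each other closely.

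Further genes, several of them known from lymphocytes, were named for a lower level without overlap. The lymphoid transcription factor gene Irf4 lay at 18.8 to 27.8 CPM in WT and 10.9 to 14.4 CPM in G3 mTerc-/-Puma+/+ (log2 fold change -0.90, SE 0.19). The sialyltransferase gene St6gal1 lay at 12.7 to 19.4 CPM and 6.45 to 10.8 CPM (-1.02, SE 0.21), and the chemokine receptor gene Ccr7 at 5.62 to 8.53 CPM and 1.87 to 4.39 CPM (-1.15, SE 0.27). The others were the sulfotransferase gene Chst1, the receptor gene Gpr55 and the Notch pathway gene Dtx1, with log2 fold changes of -2.20, -0.91 and -1.19. None of the 6 passed, with adjusted p values of 0.276 to 0.461.

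The median of the B lymphoid list took another direction on the Puma-/- background, where 18 of 23 members were higher with mTerc loss and the median was 0.59. The summed level of the list did not show this direction. It was 3133 to 5290 CPM in Puma-/- libraries. In those labelled G3 mTerc-/-Puma-/- it was 5095, 1927 and 1567 CPM in replicates 1, 3 and 4. The difference between the contrasts passed for none of the members and had an unadjusted p under 0.05 for 12 of 23 (background 4.9%). Blnk had a log2 fold change of 0.69 there (adjusted p = 0.375), Fcrla of 0.07 (adjusted p = 0.944) and Fcmr of -1.42 (adjusted p = 0.0476). The immunoglobulin genes, in contrast, had a median of -1.20 there.

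**Figure D4:**
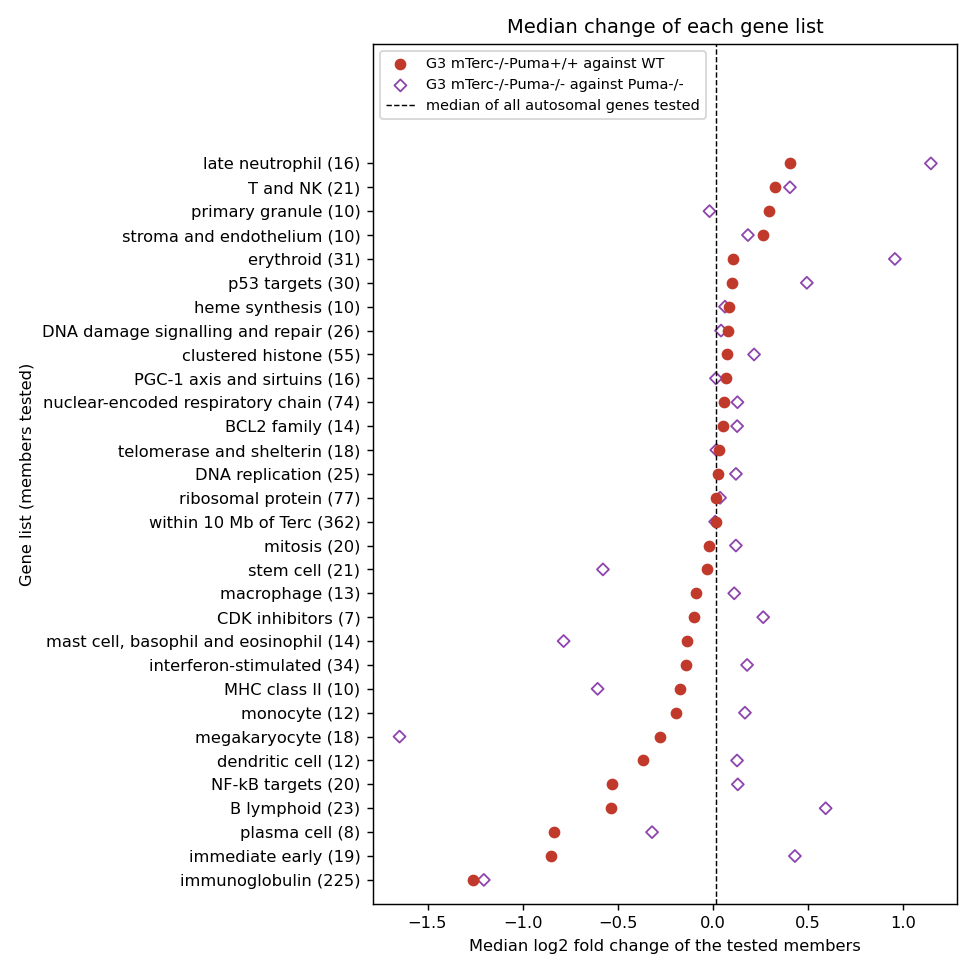
Median log2 fold change (x axis) of the tested members of each gene list (y axis, with the number tested) for G3 mTerc-/-Puma+/+ against WT (filled circles) and libraries labelled G3 mTerc-/-Puma-/- against Puma-/- (open diamonds). The dashed line is the median of all autosomal genes in the former contrast, and the immunoglobulin, immediate early, plasma cell and B lymphoid lists lie farthest to its left.

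Immediate early genes, which cells switch on within minutes of stimulation or handling, were lower as a group. All 19 members had a log2 fold change below 0, none passed, and 12 had an unadjusted p under 0.05 (background 2.26% downward), with a median of -0.85. The AP-1 gene Fos lay at 1584, 629 and 1874 CPM in WT and 468, 1226, 671 and 657 CPM in G3 mTerc-/-Puma+/+ (log2 fold change -0.85, SE 0.39). Egr2, the member with the smallest p, lay at 2.93 to 6.24 CPM and 1.25 to 1.82 CPM (log2 fold change -1.51, SE 0.43, adjusted p = 0.857). The pattern cut across the genotypes. The summed level was 7672, 3091 and 8237 CPM in WT and 2395, 5686, 3245 and 3149 CPM in G3 mTerc-/-Puma+/+, so that WT replicate 2 lay within the range of the telomerase-deficient libraries and G3 mTerc-/-Puma+/+ replicate 2 lay above it. Without WT replicate 1, 1 of 19 members had an unadjusted p under 0.05, without WT replicate 3, 2 had, and without WT replicate 2 all 19 had. Leaving out a telomerase-deficient library gave counts of 4 (replicate 4) to 17 (replicate 2).

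NF-kB targets followed this order in part. Of 20, 17 were lower and 6 had an unadjusted p under 0.05 downward (background 2.26%), with a median of -0.53. The 6 became 4 without WT replicate 1, 11 without WT replicate 2 and 10 without G3 mTerc-/-Puma+/+ replicate 2. The chemokine gene Ccl3 lay at 122 to 186 CPM in WT and 69.5 to 96.7 CPM in G3 mTerc-/-Puma+/+ (log2 fold change -0.84, SE 0.22, adjusted p = 0.749), and Nfkbia, the gene of the inhibitor IkBa, at 127 to 207 CPM and 77.7 to 131 CPM (-0.88, SE 0.27, adjusted p = 0.98). With log2 CPM of Fos as a covariate, a fit chosen after seeing the data, the median of immediate early genes was -0.02. Fos is itself an immediate early gene, so this fit brings that median near 0 by construction. The medians were -0.11 for NF-kB targets, -0.92 for B lymphoid genes, -0.80 for immunoglobulin genes and 0.20 for p53 targets. Of the p53 targets, 25 of 30 were then above 0 and 9 at an unadjusted p under 0.05. The fit cannot part stimulation or handling from genotype, because the level of Fos went in part with genotype. How far stimulation or handling moves with genotype was not tested further.

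**Figure D5:**
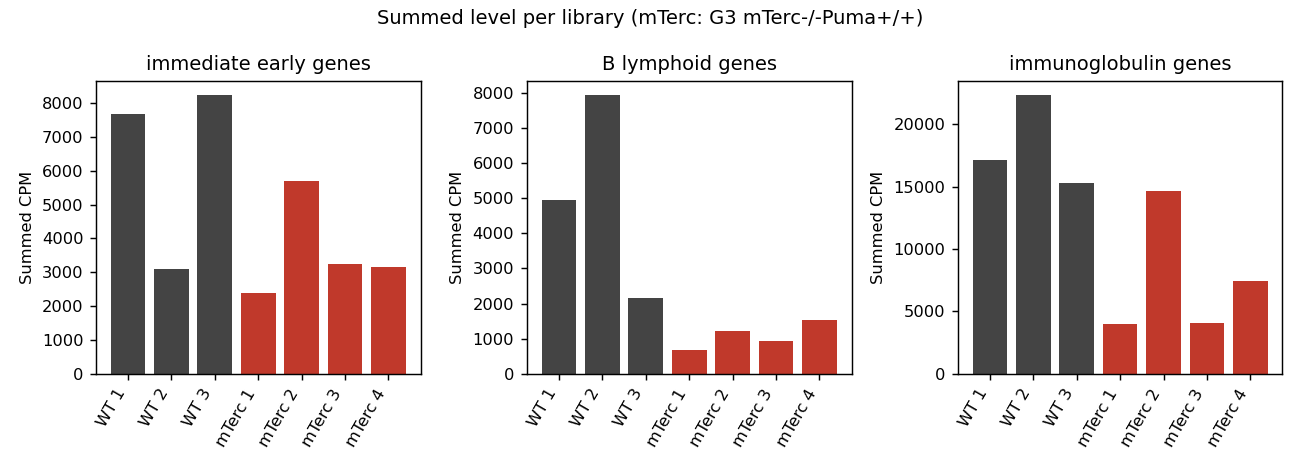
Summed CPM (y axis) of immediate early, B lymphoid and immunoglobulin genes in each WT and G3 mTerc-/-Puma+/+ (labelled mTerc) library (x axis). The bars of the immediate early genes interleave between the groups, with 3091 CPM in WT replicate 2 and 5686 in G3 mTerc-/-Puma+/+ replicate 2, while the B lymphoid sum, to which Ighm adds most, is at most 1541 CPM in all telomerase-deficient libraries and at least 2157 in all WT libraries.

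No member of the remaining lists passed, and many of their medians depended on 1 library. Of 18 telomerase and shelterin genes, whose products build and cap telomeres, 13 were higher and 0 had an unadjusted p under 0.05. The median was 0.03, and it was -0.03 without WT replicate 1 and -0.01 without G3 mTerc-/-Puma+/+ replicate 2. Tert, the catalytic subunit, lay at 0.803 to 1.44 CPM in WT and 1.16 to 1.45 CPM in G3 mTerc-/-Puma+/+, with overlap.

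Of 26 genes of DNA damage signalling and repair, 24 were higher, with a median of 0.08, and 20 to 24 were higher when a library was left out. DNA replication genes had a median of 0.03 and mitosis genes of -0.02. Both changed sign with single libraries, with medians of -0.02 for replication without G3 mTerc-/-Puma+/+ replicate 2 and 0.04 for mitosis without WT replicate 3. CDK inhibitors had a median of -0.10, which was -0.21 without G3 mTerc-/-Puma+/+ replicate 1 and -0.04 without WT replicate 2, and the BCL2 family had one of 0.05, which was 0.01 without WT replicate 1 or without G3 mTerc-/-Puma+/+ replicate 1.

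Of the blood lineage lists, stem cell genes had a median of -0.03, with 9 of 21 higher, and a median of -0.17 without WT replicate 3 and of 0.03 without WT replicate 2. Megakaryocyte genes were lower in 17 of 18 cases (median -0.28), and the platelet chemokine gene Pf4 lay at 19.0 to 44.8 CPM in WT and 19.8 to 37.0 CPM in G3 mTerc-/-Puma+/+. Of these genes, 0 had an unadjusted p under 0.05, but without WT replicate 3 there were 8 downward with a median of -0.53, and without WT replicate 1 the median was -0.12.

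Primary granule genes were higher in 10 of 10 (median 0.30), with a median of 0.12 without G3 mTerc-/-Puma+/+ replicate 2. Late neutrophil genes were higher in 12 of 16 (median 0.41), with medians of 0.09 without WT replicate 2 and 0.63 without WT replicate 1. The calprotectin gene S100a8 lay at 309 to 415 CPM in WT and 451 to 849 CPM in G3 mTerc-/-Puma+/+ (log2 fold change 0.68, SE 0.44, adjusted p = 0.998). Erythroid genes were higher in 23 of 31 (median 0.10), in 14 (median -0.03) without G3 mTerc-/-Puma+/+ replicate 3 and in 27 (median 0.32) without G3 mTerc-/-Puma+/+ replicate 2. Heme synthesis genes were higher in 9 of 10 (median 0.08).

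Genes of antigen presentation and interferon signalling were mostly lower. Dendritic cell genes were lower in 12 of 12 (median -0.37), MHC class II genes in 10 of 10 (median -0.17), monocyte genes in 11 of 12 (median -0.19), macrophage genes in 11 of 13 (median -0.09) and interferon-stimulated genes in 27 of 34 (median -0.14). The MHC class II and macrophage medians rested in large part on G3 mTerc-/-Puma+/+ replicate 2, and the other medians less so. Without it, the medians were -0.16 for dendritic cell, -0.02 for MHC class II, -0.13 for monocyte, 0.13 for macrophage and -0.09 for interferon-stimulated genes. Of 13 macrophage genes, 10 were then higher. Without G3 mTerc-/-Puma+/+ replicate 1 the medians in the same order were -0.60, -0.31, -0.33, -0.51 and -0.26, and without WT replicate 3 the monocyte median was -0.07. The plasmacytoid dendritic cell receptor gene Siglech lay at 16.4 to 34.5 CPM in WT and 8.04 to 23.2 CPM in G3 mTerc-/-Puma+/+ (log2 fold change -0.70, SE 0.34, adjusted p = 0.998).

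The direction of the T and NK and of the stromal lists depended on G3 mTerc-/-Puma+/+ replicate 1. T and NK genes were higher in 18 of 21 (median 0.32) with it and in 6 of 21 (median -0.12) without it. Genes of stroma and endothelium were higher in 8 of 10 (median 0.27) with it and in 2 of 10 (median -0.17) without it. Mast cell, basophil and eosinophil genes were higher in 5 of 14 (median -0.14), 3 of them (Mcpt4, Tpsb2 and Cma1) at an unadjusted p under 0.05 through the high level of the same library, and in 12 of 14 (median 0.09) without WT replicate 2.

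Genes of energy and protein synthesis had medians near 0, with directions that turned on 1 library. Nuclear-encoded respiratory chain genes had a median of 0.06 (66 of 74 higher) and ribosomal protein genes one of 0.02 (49 of 77 higher). Without G3 mTerc-/-Puma+/+ replicate 2, 13 of 74 and 9 of 77 were higher, and without WT replicate 1, 33 of 74 and 8 of 77 were. Clustered histone genes had a median of 0.07 (33 of 55 higher), which was -0.15 without G3 mTerc-/-Puma+/+ replicate 2 and 0.22 without WT replicate 3. PGC-1 axis and sirtuin genes had a median of 0.07 (12 of 16 higher), which was 0.02 without G3 mTerc-/-Puma+/+ replicate 2.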

How the data were processed

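RNA of lineage-negative bone marrow cells was sequenced as stranded, poly(A)-selected libraries. The authors aligned trimmed reads (Trimmomatic 0.38) to mm10 (GRCm38) with STAR 2.5.2b, whose gene counts they deposited without normalization. The annotation release and strand setting are not given in the sources used here, so reads of overlapping antisense genes cannot be told apart. Symbols and positions came from GENCODE for GRCm38, in which 563 of 45706 identifiers had no symbol.

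The counts were tested with edgeR 4.0.16 under R 4.3.3 (filterByExpr, TMM, quasi-likelihood test, Benjamini-Hochberg adjustment over 18983 genes), in a fit of 14 libraries and 4 genotypes that left out G3 mTerc-/-Puma-/- replicate 2, which the study's heatmaps do not draw. The common biological coefficient of variation was 0.251. CPM are TMM-normalized, with a prior count of 2 on the log2 scale. Totals of 102790519 to 134106521 counts put the floor of 3 counts at 0.0219 to 0.0295 CPM. Exact permutation tests over libraries were added for single genes.

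The groups, gene lists and rules were chosen with earlier results of these data known. Named were genes that passed, up to 12 protein-coding genes each way with the smallest p among those without overlap and at least 1 CPM, the targeted and p53 genes, up to 4 members per list, and genes within 10 Mb of Terc at p under 0.01. Alternatives were all 15 libraries, the 7 alone, other scalings and filters, DESeq2 1.42.0, limma-voom (limma 3.58.1), a replicate block, Xist as a covariate and leaving out each library. Fos as a covariate was added after seeing the data. On simulated counts of this comparison over 18983 genes, edgeR recovered 74% of genes changed by a log2 fold of 1, 94% at 1.5 and 98% at 2, with 5.76% of calls on unchanged genes. The changed genes were drawn only from those with a mean above 1 CPM, so these rates do not cover lower genes. Apart from library size, the simulated libraries held no effect shared by many genes, such as handling, sex or cell mixture. The result of 1 gene is not reported here.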

Additional observations from a re-analysis of the deposited data

Results flagged for a closer look

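The 4 G3 mTerc-/-Puma+/+ libraries were checked in 64 named genes for a library far from the other 3, where chance flags about 1 in 20 groups. Of these genes, 5 were flagged. Replicate 1 stood apart in 3 mast cell protease genes that the connective tissue type of this cell makes, with Mcpt4 at 17.6 CPM beside 0 to 0.0250 in the other 3 libraries, Tpsb2 at 11.5 CPM beside 0 to 0.0372, and Cma1 at 10.5 CPM beside 0.0882 to 0.558. WT libraries lay at 0.0197 to 0.221 CPM for Mcpt4, 0.0185 to 0.141 for Tpsb2 and 0.285 to 0.371 for Cma1. The same library also had the highest summed level of the stroma and endothelium genes, 3123 CPM beside 433 to 847 in the other 3. Mcpt8 and Prss34, proteases of basophils, did not share this pattern, with 367 to 717 and 678 to 1269 CPM over the 4 libraries. The long noncoding RNA 1010001B22Rik was highest in replicate 4 at 0.316 CPM, and the chemokine gene Ccl4 was lowest in replicate 3 at 20.1 CPM beside 31.2 to 31.9.

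The effect of mTerc loss differed between the backgrounds with Puma and labelled Puma-/- for 3 named genes, by the test of the difference itself. Bbc3 in the libraries labelled G3 mTerc-/-Puma-/- goes against that label, so these differences rest on it. The difference was -4.44 on the log2 scale for Gm15446 and -5.92 for 1010001B22Rik. It was 1.65 for Cep85 (SE 0.25, adjusted p = 0.0278), which had log2 fold changes of -0.99 with Puma and 0.67 on the other background.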

How the results depend on the processing

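The 7 calls of G3 mTerc-/-Puma+/+ against WT became 4 with all 15 libraries, 3 with the 7 libraries alone (2 of them shared), 44 with DESeq2 and 4 with Fos as a covariate, and 1 to 8 when a library was left out. DESeq2 called 17 genes on simulated counts with no gene changed, where edgeR called 0. Gm15446 passed in 18 of 18 alternatives, Rbm8a and Iglc2 in 15, 1010001B22Rik in 15 of 17, Wdfy1 in 14, Fcmr in 10 and Fcrla in 8. The 52 calls on the Puma-/- background became 267 with DESeq2, 27 with Xist as a covariate and 43 to 84 without a library. The 4 calls of the difference between the contrasts became 7 with no filter, 57 with DESeq2, 2 with limma-voom, 1 with Fos as a covariate and 1 to 5 without a library. Deviations of same-numbered libraries correlated at -0.253 to -0.0667, so the numbers were not taken to pair samples. With the replicate block, the counts were 6, 15 and 5. The log2 fold change of Bbc3 was 0.00245 with the block, 0.42 with Fos and -0.38 to 0.16 without a library. That of Trp53 was -0.000441 with DESeq2 size factors, -0.000448 with DESeq2 and -0.036 to 0.038 without a library. Those of Tpsb2 and Mcpt4 ran from -1.95 to 7.17 and from -3.21 to 7.47 without a library, and Mcpt4 lay at -0.13 with Fos. The causes of these shifts were not tested. The median over all autosomal genes stayed between -0.00985 and 0.0368. Where a group was left with fewer libraries, its spread was pooled with the others. Terc and other genes of few counts were limited by depth.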

Other observations

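Genes outside the lists that set WT apart included a pair at 1 locus. Nbea and Mab21l1, which lies within Nbea on chromosome 3, were higher in all WT libraries than in all 11 others, at 1.17 to 2.62 CPM beside 0.357 to 1.05 for Nbea and 0.275 to 1.55 CPM beside 0.0293 to 0.201 for Mab21l1 (unadjusted p = 0.00605 and 0.000254 by edgeR, adjusted p = 0.98 and 0.276). Genes that set all mTerc-/- libraries apart from all others included Tnfsf4, the gene of the T cell costimulator OX40 ligand, at 0.598 to 3.13 CPM beside 0.115 to 0.558, and the long noncoding RNA Pvt1 at 4.36 to 8.92 CPM beside 1.51 to 3.26. The amino acid transporter gene Slc6a19 was lower in these libraries, at 0.0093 to 0.351 CPM beside 0.445 to 1.71. For Tnfsf4, Pvt1 and Slc6a19, the adjusted p in G3 mTerc-/-Puma+/+ against WT was 0.461, 0.998 and 0.463 by edgeR. These genes were chosen after their values were seen.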
